A study of Rattus norvegicus with 9 samples.

Results

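The genes described here encode the subunits of the mitochondrial respiratory chain and of the ATP synthase, with some of the factors that assemble them. They are all probe sets whose only gene symbol in the platform annotation starts with Nduf, Sdha to Sdhd, Uqcr, Cox4 to Cox8 or Atp5. By this rule 101 probe sets for 90 genes were found among 31042 probe sets that are not controls, which name 14217 genes in all. Complex I had 37 probe sets for 34 genes, complex II 5 for 4, complex III 8 for 7, complex IV 18 for 18 and complex V, the ATP synthase, 20 for 16. The symbol prefixes also took in 12 probe sets for 10 assembly factors of complexes I and II and 1 pseudogene, Cox6c-ps1. The complex V group includes Atp5if1, an inhibitor of the enzyme, and complex IV includes Ndufa4 and its relative Ndufa4l2. Another 7 probe sets with such a symbol were annotated to several genes and were not counted, and Cox7a2 was not analysed here.

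Complex I takes electrons from NADH and complex II from succinate, both pass them to ubiquinone, and complexes III and IV carry them on to oxygen. Complexes I, III and IV pump protons across the inner mitochondrial membrane, and the ATP synthase uses the returning protons to make ATP. In the zona glomerulosa, the outer layer of the adrenal cortex that makes aldosterone, the first and last steps of aldosterone synthesis take place in the same organelle, on cytochromes P450 fed by an electron chain of their own. Angiotensin II (Ang II) and extracellular potassium are the main physiological stimuli of that synthesis. All the members are encoded in the nucleus. The respiratory chain subunits made from mitochondrial DNA are not among them.

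Rat zona glomerulosa cells were dispersed from adrenals in 3 independent preparations, and each preparation supplied 1 control tube, 1 tube with 100 nM Ang II and 1 tube with 16 mM potassium. Control cells stayed under basal conditions in a DMEM:F12 medium with 0.5% albumin. All tubes were kept for 2 h at 37 °C, and the RNA of each was hybridised to its own Affymetrix Rat Genome 230 2.0 array, which gives 9 arrays, 3 for each group. Strain, sex and age were not given in the sources used here. The cells were freshly dispersed and not a pure cell type, and in such bulk RNA fewer cells of a type and less RNA per cell cannot be told apart. The arrays were compared in pairs within a preparation, on the log2 of the deposited signal plus 16, over the 18625 probe sets whose mean signal lay above the 40th percentile. A probe set passed the test at a Benjamini-Hochberg adjusted p under 0.05 over all of these in limma. Adding 16 understates the change of dim genes, and the number of arrays limits the precision of every value.

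Of the members, 94 probe sets for 88 genes were bright enough to be tested. The 7 left out were the only probe sets of Cox6a2 and Cox7b2, the muscle isoform of subunit 6A and the testis isoform of subunit 7B, and further dim probe sets of Ndufa9, Atp5if1, Atp5me, Atp5po and Sdhaf2. Cox6a2 read 7.4, 137 and 10.2 in the control tubes, 8.6, 22 and 20.2 with Ang II and 3.7, 12.4 and 6.7 with potassium, so that the control tube of preparation 2 stood above the 8 others.

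The arrays had been scaled to a trimmed mean of 500.2, and their median signals ran from 128.0 to 143.6 except in the control tube of preparation 2, at 172.9. Markers of the zona glomerulosa were bright in every tube, with a summed signal of 118006 to 137161 over 12 probe sets of 8 genes. Of these probe sets 1 was higher with Ang II and 3 with potassium, where 2.17% and 5.39% of all tested probe sets passed in either direction. The aldosterone synthase gene Cyp11b2 was not analysed here. Summed markers of fasciculata cells, medulla, endothelium, macrophages, capsule fibroblasts and red blood cells overlapped between the 3 groups, and 0 of their 23 tested probe sets passed the test in any comparison of treatments (limma; at an unadjusted p under 0.05, 3 for potassium against control and 0 in the others). Over all tested probe sets the unadjusted share was 18.8% for potassium, 14.5% for Ang II and 16.2% between the stimuli. The 3′ to 5′ signal ratio of Gapdh, a measure of RNA integrity, was 0.587 to 0.673 (log2) in the control tubes, 0.454 to 0.580 with Ang II and 0.391 to 0.584 with potassium. For beta-actin it was 1.64 to 1.79, 1.53 to 1.59 and 1.41 to 1.85. Control and Ang II tubes did not overlap in either ratio, and control and potassium tubes did not overlap in that of Gapdh. The part of RNA integrity in the results below was not tested.

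The promoters of 3 of the 4 members that passed the test after potassium are shown because their genes moved in opposite directions in the same tubes. Ndufa5 and Ndufs4 rose, and Ndufaf4 fell. Each sequence runs 5′ to 3′ on the gene's strand, from 250 bases before the annotated start to 50 after it, as RefSeq gives it on the rat assembly GRCr8. Capitals mark matches to the motifs searched.
Ndufa5, chr4:53971186-53971485, minus strand: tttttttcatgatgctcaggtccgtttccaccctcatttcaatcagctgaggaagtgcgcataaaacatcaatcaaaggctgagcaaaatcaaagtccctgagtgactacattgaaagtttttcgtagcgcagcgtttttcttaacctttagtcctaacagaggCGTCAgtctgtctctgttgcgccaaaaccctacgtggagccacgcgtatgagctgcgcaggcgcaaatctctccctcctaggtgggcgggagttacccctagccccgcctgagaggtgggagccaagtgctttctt
Ndufs4, chr2:47794865-47795164, minus strand: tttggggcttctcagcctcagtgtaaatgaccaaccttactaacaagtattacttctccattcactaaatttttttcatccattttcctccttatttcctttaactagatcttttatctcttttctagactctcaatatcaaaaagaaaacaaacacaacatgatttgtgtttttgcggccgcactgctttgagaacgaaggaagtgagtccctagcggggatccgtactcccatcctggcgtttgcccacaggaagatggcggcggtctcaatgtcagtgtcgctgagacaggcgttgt
Ndufaf4, chr5:43401545-43401844, plus strand: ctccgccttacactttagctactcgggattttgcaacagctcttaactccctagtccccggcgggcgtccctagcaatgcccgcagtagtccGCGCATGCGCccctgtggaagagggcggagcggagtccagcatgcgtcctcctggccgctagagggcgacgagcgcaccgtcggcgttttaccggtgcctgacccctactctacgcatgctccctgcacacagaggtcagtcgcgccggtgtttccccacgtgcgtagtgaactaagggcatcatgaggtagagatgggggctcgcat

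The motifs were the core of the NRF-1 site, GCGCATGC, an ETS site as bound by GABP, CCGGAAG, the full cyclic AMP response element (CRE), TGACGTCA, and its shorter form, TGACG, which every full CRE also holds. Both strands were searched in 82 member genes with a window in the table and in all 33469 windows. NRF-1 and GABP are known activators of respiratory chain genes. The NRF-1 core was found in 9 member windows (10.98%) against 2.47% of all windows, and the ETS site in 25 (30.5%) against 8.75%. The full CRE was in 3 (3.66%) against 1.83% and the shorter form in 37 (45.1%) against 21.2%. The Ndufa5 window held 1 shorter CRE, on the strand opposite to the gene, the Ndufs4 window held none of the 4 motifs, and the Ndufaf4 window held 2 overlapping NRF-1 cores. The window of Ndufa3, which also fell with potassium and is not shown, held 1 shorter CRE and none of the other motifs. The motifs thus did not sort these genes by direction. A match describes the letters and not binding.

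Potassium raised Ndufa5 more than any other member, by 3.37-fold. Ndufs4 rose too, by 1.38-fold, while the assembly factor Ndufaf4 and the small subunit Ndufa3 fell. The other 90 tested member probe sets did not pass the test. The 4 that passed make 4.26% of the 94, where 5.39% of all tested probe sets passed, so the members' share was near the background. The control and potassium tubes did not overlap for 12 of the 94, and for 17.6% of all tested probe sets.

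**Figure D1:**
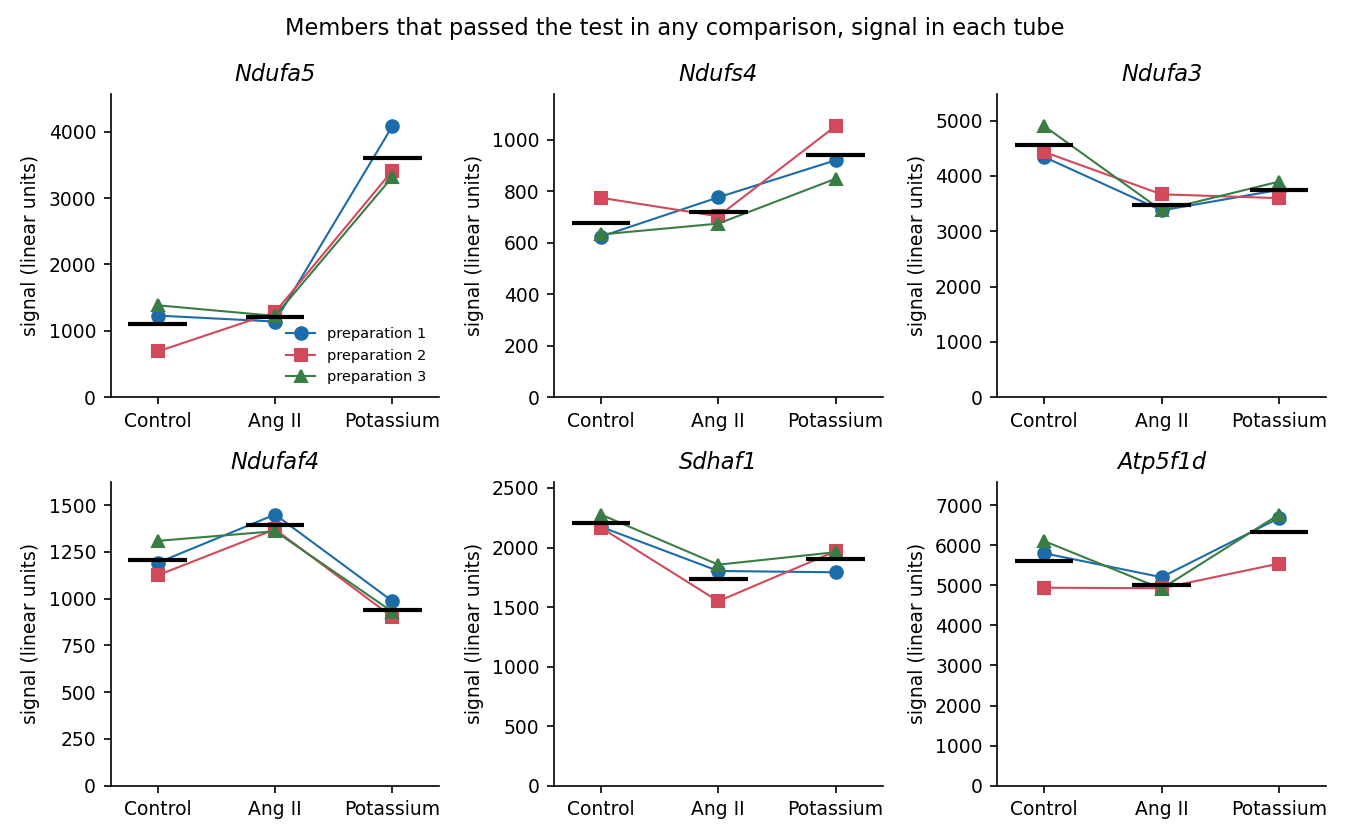
Signal (linear units, from 0) of the 6 members that passed the test in any comparison, in the control, Ang II and potassium tubes. Points of 1 colour and shape joined by a line come from the same cell preparation, and black bars are group means (n = 3). Ndufa5 stands at 3318 to 4084 with potassium and at 688 to 1384 in the 6 other tubes.

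Ndufa5 (1386951_at) encodes an accessory subunit of the arm of complex I that reaches into the matrix. Its signal was 1229, 688 and 1384 in the control tubes of preparations 1, 2 and 3, 1139, 1280.0 and 1224 with Ang II and 4084, 3412 and 3318 with potassium. All 3 potassium tubes lay above all 6 others, and the control and Ang II tubes overlapped. Potassium against control gave 1.75 ± 0.16 (log2, SE; 95% interval 1.41 to 2.10; adjusted p = 6.8e-06), with 1.72, 2.28 and 1.25 in the 3 preparations. Preparation 2 gave the greatest rise, and its control tube was the lowest of the 9. Ang II against control gave 0.20 ± 0.16 (adjusted p = 0.64). The rise with potassium ranked 25th in size among 521 probe sets that rose. It passed the test under each of the 22 other settings of the fit, with values between 1.45 and 2.00. Only 1 probe set is annotated to Ndufa5, so no other probe set bears on the rise.

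Ndufs4 (1372147_at) encodes another accessory subunit of the matrix arm, whose loss causes mitochondrial disease. It read 624, 775 and 632 in the control tubes, 777, 703 and 675 with Ang II and 921, 1054 and 849 with potassium. The lowest potassium tube lay above the highest of the 6 others. The difference between potassium and control was 0.47 ± 0.11 (adjusted p = 0.02), positive in each preparation at 0.55, 0.44 and 0.42. This call was near the threshold. It was lost without the control tube of preparation 1 (0.116) or 3 (0.0615) and without the potassium tube of preparation 1 (0.0752), 2 (0.106) or 3 (0.0521), all as adjusted p, without pairing by preparation (0.0734) and with no variance trend (0.114).

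Ndufaf4 (1389384_at) encodes a factor needed to assemble complex I and not a subunit of the finished enzyme. It moved apart under the 2 stimuli. Its signal was 1192, 1125 and 1309 in the control tubes, 1450.0, 1371 and 1361 with Ang II and 987, 902 and 930.0 with potassium, so that the 3 groups did not overlap and potassium was the lowest. Potassium against control gave -0.36 ± 0.089 (adjusted p = 0.03). Ang II against control gave 0.21 ± 0.089 and did not pass (adjusted p = 0.3). The fall with potassium was lost without any 1 control or potassium tube (adjusted p between 0.0636 and 0.165), without the Ang II tube of preparation 1 (0.0514) and without pairing (0.0881). It was lost in 15 of 22 settings, and scaling to the array median moved it to -0.24 (0.308).

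Ndufa3 (1388489_at) encodes a small subunit of the membrane arm of complex I. It read 4341, 4432 and 4900.0 in the control tubes, 3375, 3666 and 3376 with Ang II and 3745, 3597 and 3895 with potassium. Every stimulated tube lay below every control tube, and the Ang II and potassium tubes overlapped. Ang II against control gave -0.39 ± 0.072 (adjusted p = 0.0079), a signal 1.31-fold lower, and potassium against control gave -0.28 ± 0.072 (adjusted p = 0.034). The fall with Ang II was lost without the control tube of preparation 3 (0.0648) or the Ang II tube of preparation 1 (0.062) or 3 (0.0799), with no variance trend (0.214) and with each array scaled to its own median (0.265). That with potassium was lost without any 1 control or potassium tube (0.0659 to 0.184), without the Ang II tube of preparation 1 (0.0578) and without pairing (0.0993). It was lost in 16 of 22 settings, and scaling to the array median moved it to -0.16 (0.484). These 2 comparisons share the control tubes.

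None of the other genes with the smallest p in each complex passed after potassium. In complex II these were Sdhd, the membrane anchor that also binds ubiquinone (-0.13 in the brighter of its 2 probe sets), and the iron-sulfur subunit Sdhb (0.074). In complex III a dimmer probe set of the core protein Uqcrc2 gave 0.36 ± 0.18 (adjusted p = 0.3), with 3250.0, 2479 and 1540.0 in the potassium tubes, while its brighter probe set gave -0.0016. The potassium tubes of the dimmer probe set spanned more than the difference between the group means, and Uqcrq, the next in complex III, gave -0.058. In complex IV, Cox7a2l, a protein that joins complexes into supercomplexes, gave 0.10 and the dim isoform Cox4i2 -0.38 ± 0.30 (adjusted p = 0.56). In complex V Atp5f1d, the delta subunit of the central stalk, gave 0.17 ± 0.071 (adjusted p = 0.2). The oligomycin-sensitivity subunit Atp5po gave -0.17. Ndufaf1, another assembly factor of complex I, gave -0.85 ± 0.28 (adjusted p = 0.099) at signals of 52.4 to 199 in the 9 tubes, where the error is wide.

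The following subunits, most of them at the catalytic centres, did not pass for potassium against control, and each 95% interval held 0. Ndufv1, which binds NADH, read 5502 ± 429 (SD, n = 3) in the control tubes and 5605 ± 295 with potassium, a difference of 0.028 with a 95% interval of -0.11 to 0.17. The iron-sulfur core subunit Ndufs1 gave -0.008 to 0.31 as its interval, the flavoprotein Sdha -0.14 to 0.11 and the Rieske protein Uqcrfs1 -0.12 to 0.17. Cox4i1, the common isoform of subunit 4, gave -0.15 to 0.12. Atp5f1a and Atp5f1b, the alpha and beta subunits that form the catalytic head of the ATP synthase, gave -0.13 to 0.14 and -0.10 to 0.16. For 79 of the 94 probe sets the whole 95% interval lay within 0.5 log2 of 0. This is 84.0%, against 48.4% of all tested probe sets, many of which are dimmer.

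Over all tested members the differences between potassium and control lay about 0. Their median was -0.0022, against -0.020 over all tested probe sets, and 50 of 94 (53.2%) were below 0, against 53.6%. Both values depended on the scaling. With each array scaled to its own median, all tested probe sets shifted to 0.098, the member median to 0.12, and 19.1% of the members were below 0. With quantile normalization 67.0% of the members were below 0. The medians within preparations 1, 2 and 3 were 0.0085, 0.062 and -0.054. By complex, the median was 0.020 for I, -0.014 for II, -0.00085 for III, -0.0050 for IV, -0.0028 for V and -0.18 for the assembly factors. Of the 11 tested probe sets of assembly factors, 1, Ndufaf4, passed.

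Ang II lowered 2 members past the threshold, Ndufa3 and Sdhaf1, and raised 0. They are 2.13% of the 94, against 2.17% of all tested probe sets. The control and Ang II tubes did not overlap for 10 of the 94, and for 15.0% of all tested probe sets. At an unadjusted p under 0.05, 2 member probe sets were higher and 16 were lower, and over all tested probe sets 1351 were higher and 1341 lower.

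Sdhaf1 (1371488_at) encodes a factor that helps insert iron-sulfur clusters into complex II. Its signal was 2174, 2167 and 2277 in the control tubes, 1803, 1549 and 1856 with Ang II and 1792, 1969 and 1961 with potassium. Neither stimulated group overlapped the control group. Ang II against control gave -0.35 ± 0.084 (adjusted p = 0.044), a 1.27-fold fall, and potassium against control gave -0.21 ± 0.084 (adjusted p = 0.18). The call with Ang II was lost under 17 of the 22 other settings. They include leaving out any 1 control or Ang II tube (adjusted p between 0.0821 and 0.262) or the potassium tube of preparation 1 (0.0549) or 3 (0.0556), and scaling to the array median, which moved it to -0.22 (0.390).

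The next members by p in each complex did not pass after Ang II. Ndufv2, an iron-sulfur core subunit of complex I, read 5899, 6726 and 5217 in the control tubes and 5563, 4348 and 4281 with Ang II, which overlap, and gave -0.33 ± 0.088 (adjusted p = 0.071). The brighter probe set of Sdhd read 3970.0, 3592 and 3562 and 3378, 2981 and 3105, with no overlap, and gave -0.23 ± 0.066 (adjusted p = 0.093). Its other anchor partner Sdhc gave -0.14. In complex V, Atp5po gave -0.24 ± 0.075 (adjusted p = 0.13) and the membrane subunit Atp5me -0.21 ± 0.086 (adjusted p = 0.26). The small complex III subunits Uqcr10 and Uqcrq gave -0.14 and -0.13. Cox4i2, the isoform of subunit 4 known from lung, gave -0.50 ± 0.30 at signals of 75.7 to 287, and Cox5b gave -0.10.

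Across the members the differences with Ang II leaned to the lower side by a small amount. The median was -0.076 against -0.026 over all tested probe sets, and 71 of 94 (75.5%) were below 0 against 55.1%. By complex, the median was -0.084 for I, -0.14 for II, -0.040 for III, -0.075 for IV, -0.050 for V and -0.18 for the assembly factors. The lean differed between the 3 preparations, whose medians were -0.056, 0.024 and -0.16. Without the control tube of preparation 3 the median was -0.021, without the Ang II tube of preparation 3 it was -0.044, and without preparation 3 it was -0.0088. It also depended on the scaling. With each array scaled to its own median, all tested probe sets shifted to 0.093, the member median to 0.047, and 33.0% of the members were below 0. Median centring gave -0.037 with 60.6% below 0, and quantile normalization -0.12 with 84.0%, where all tested probe sets were at 0.013 and -0.00086. Under each of these scalings the member median lay below that of all tested probe sets. Without preparation 3 it did not (-0.0088 against -0.022), nor without the control tube of preparation 3 alone (-0.021 against -0.024). The interval of 80 of the 94 probe sets (85.1%) lay within 0.5 log2 of 0, against 51.7% of all.

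**Figure D2:**
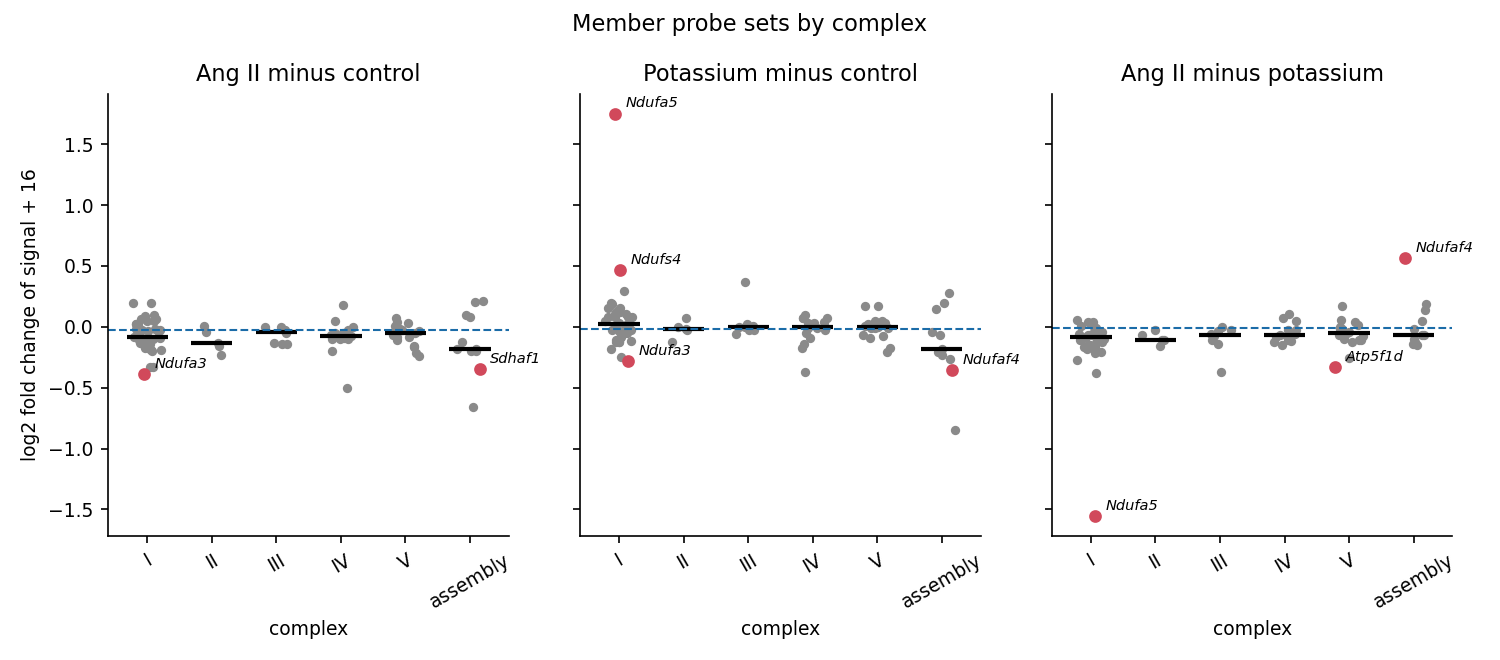
Difference (log2 of signal plus 16) of each tested member probe set, by complex, for the 3 comparisons. Black bars are medians of a complex, the dashed blue line is the median of all 18625 tested probe sets, and red named points passed the test. Most points lie close to 0, with Ndufa5 at 1.75 for potassium minus control.

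The 2 stimuli were also compared directly, tube by tube within a preparation. Ndufa5 was 2.93-fold lower with Ang II than with potassium, Atp5f1d was 1.26-fold lower and Ndufaf4 was 1.48-fold higher. These 3 are 3.19% of the 94, against 4.79% of all tested probe sets. The Ang II and potassium tubes did not overlap for 15 of the 94, and for 18.7% of all tested probe sets.

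For Ndufa5 the difference was -1.55 ± 0.16 (adjusted p = 3.3e-05), and it passed under all 22 other settings. For Ndufaf4 it was 0.56 ± 0.089 (adjusted p = 0.0014), with 0.55, 0.60 and 0.54 in the 3 preparations. It was lost under 1 of 22 settings, the fit without a variance trend (adjusted p = 0.0611). Atp5f1d (1370278_at) read 5800.0, 4940.0 and 6105 in the control tubes, 5202, 4927 and 4914 with Ang II and 6678, 5542 and 6766 with potassium. The control tubes spread over both stimulated groups, which did not overlap each other. The difference was -0.33 ± 0.071 (adjusted p = 0.013). It was lost without the Ang II tube of preparation 1 (0.0928) or 3 (0.106), without the potassium tube of preparation 1 (0.0844) or 3 (0.0851), without pairing (0.114), with no variance trend (0.212) and with scaling to the array median (0.171). Ndufs4 gave -0.38 ± 0.11 and did not pass (adjusted p = 0.062), except in the fit limited to a mean signal above 200 (0.0466). Atp5me gave -0.26, Cox7a2l gave -0.15, and Cox7b gave -0.12, none past the threshold.

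Most members read slightly lower with Ang II than with potassium. The median was -0.069 against -0.013 over all tested probe sets, and 77 of 94 (81.9%) were below 0 against 52.6%. The medians within preparations were -0.085, -0.031 and -0.12, and the sign held under all scalings tried, between -0.067 and -0.078. Without the Ang II tube of preparation 3 it was -0.031. All 5 probe sets of complex II and all 8 of complex III were below 0, as were 32 of 36 in complex I, 13 of 16 in complex IV and 12 of 17 in complex V. At an unadjusted p under 0.05, 12 member probe sets were lower and 1 was higher, together 13.8%, against 16.2% of all tested probe sets (1426 lower and 1591 higher). The lean was not particular to the members. The citric acid cycle and pyruvate list described below had a median of -0.093, with 24 of 26 (92.3%) below 0. The electron carrier list had -0.045, with 22 of 32 (68.8%). Regulators of mitochondrial genes (0.076) and proteasome subunits (0.075) lay on the higher side, and cytosolic ribosomal proteins gave 0.0029.

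The members' signals also differed between tubes of 1 group. The control tube of preparation 2 was the lowest of all 9 tubes for 36 of the 94 member probe sets and the highest for 10. Over all tested probe sets it was the lowest of the 9 for 2935 of 18625 and the highest for 4280. Its median deviation from the 9-array mean was -0.088 over the members, against 0.071 and 0.089 in the other control tubes. In this tube other lists were low too, at -0.15 for the citric acid cycle list and -0.075 for the electron carrier list. Proteasome subunits were at -0.073 and cytosolic ribosomal proteins at -0.049. Regulators of mitochondrial genes stood at 0.011 and all tested probe sets at 0.035. The same tube had the highest array median. Without it, Ang II against control called 1 member, Ndufa3, with a member median of -0.10, and calls over all tested probe sets went from 404 to 239. Potassium against control called 2 members, Ndufa5 and Ndufs4, with a median of -0.037, and calls over all tested probe sets went from 1004 to 597.

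**Figure D3:**
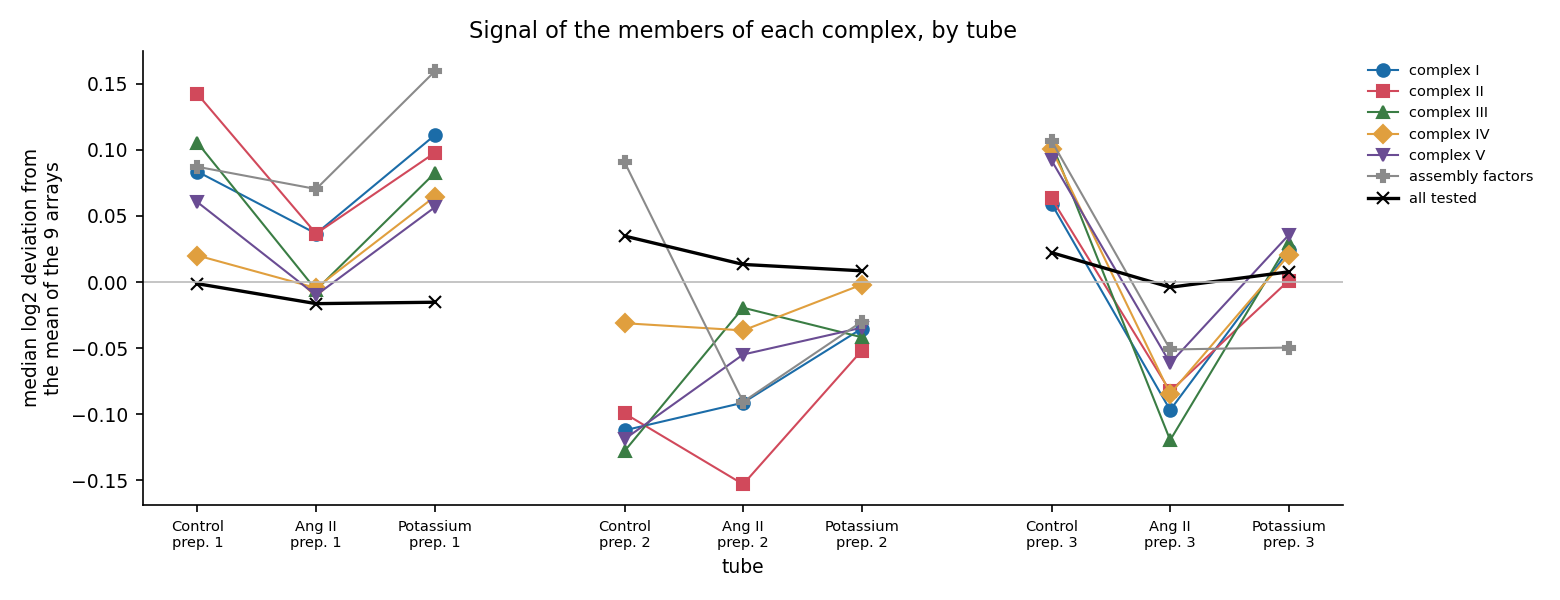
Median deviation of the members of each complex from their mean over the 9 arrays (log2 of signal plus 16), for each tube, with tubes of a preparation joined. The black line is the same for all tested probe sets. The control tube of preparation 2 is below 0 for complexes I to V, and all medians of complexes lie between -0.15 and 0.16.

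Differences between the 3 preparations were tested with the treatments held fixed. They passed for 2 member probe sets, Cox8b and Ndufc1, where 3.43% of all tested probe sets passed. At an unadjusted p under 0.05 they numbered 26 of 94 (27.7%), against 19.5% of all. Cox8b (1367739_at), the isoform of subunit 8 known from heart and skeletal muscle, read 798, 426 and 612 in the control tubes of preparations 1, 2 and 3, 755, 412 and 544 with Ang II and 834, 335 and 546 with potassium. The order of the preparations was the same in all 3 groups, and the preparation means were 795, 391 and 567 (adjusted p = 0.00131). Ndufc1 (1392530_at), a small subunit of complex I, was highest in preparation 1 in each group, with means of 2973, 2188 and 2451 (adjusted p = 0.0139). Neither passed in the fit without a variance trend, and 1 of them was left without the control, Ang II or potassium tube of preparation 1.

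Markers of other cell types differed between preparations too. The preparation test passed for 1 of 2 fasciculata, 1 of 5 medulla, 1 of 3 endothelial and 2 of 4 macrophage probe sets. It also passed for 2 of 7 capsule fibroblast and 1 of 2 red blood cell probe sets. In the zona glomerulosa list it passed for 0 of 12, and over all tested probe sets for 3.43%. Cyp11b1, the 11-beta-hydroxylase of the zona fasciculata, read 5174, 1839 and 2895 in the control tubes, 4552, 2467 and 2895 with Ang II and 5413, 3095 and 3045 with potassium, so that preparation 1 stood highest in each group. Its summed list (Cyp11b1, Akr1b7 and Cyp2f4) was 33721 to 34661 in preparation 1, 29943 to 32457 in preparation 2 and 30441 to 32094 in preparation 3. Summed medulla markers were 2020 to 2379, 1950 to 2121 and 2656 to 3048, and macrophage markers were 2857 to 3267, 3546 to 4054 and 2824 to 3233. Endothelial markers were lowest in preparation 1, at 14929 to 15947 against 16260 to 18827 in the others, and capsule fibroblast and red blood cell markers were lowest there too. The part of cell makeup in the members' preparation differences was not tested. Over the members, the SD between preparation means exceeded that between treatment means in 58 of 94 probe sets (61.7%), against 50.5% of all tested probe sets.

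**Figure D4:**
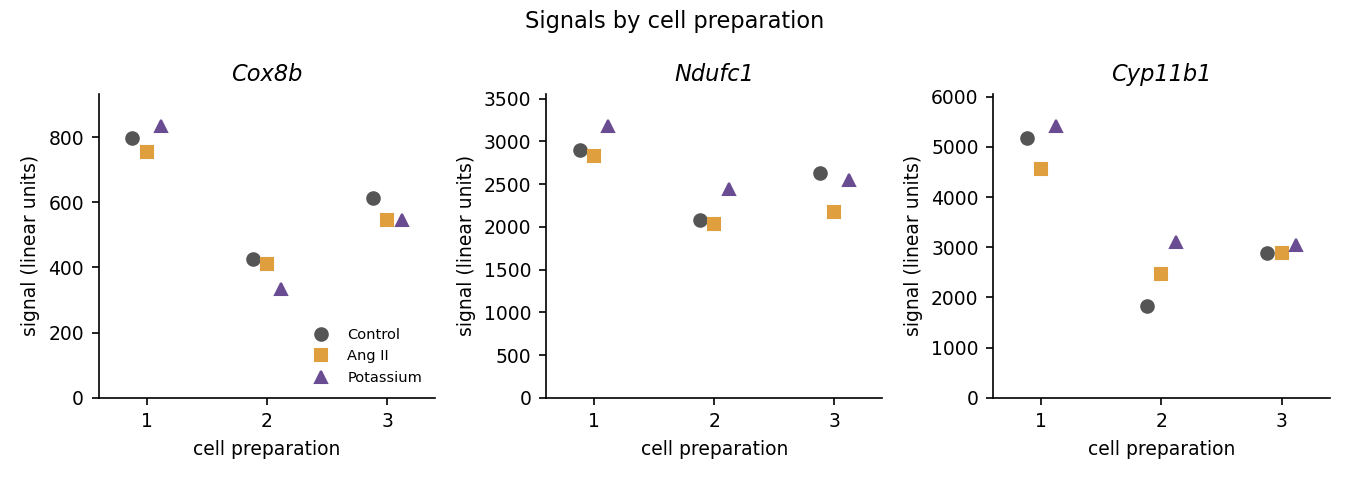
Signal (linear units, from 0) of Cox8b, Ndufc1 and the fasciculata gene Cyp11b1 in each tube, by cell preparation, with the 3 treatments as symbols. In all 3 panels the tubes of preparation 1 stand highest.

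Other genes of mitochondrial energy metabolism were described from fixed lists. Unlike the members, these lists were examined under the main settings only. How their calls and medians depend on scaling, pairing or single tubes was not tested. Among 32 probe sets of electron carriers, further assembly factors and import and carrier proteins, a list that also holds the member Atp5if1, 0 passed in any of the 3 comparisons. At an unadjusted p under 0.05, 1 passed for Ang II (3.1%), 3 for potassium (9.4%) and 5 between the stimuli (15.6%). Over all tested probe sets these shares were 14.5%, 18.8% and 16.2%. The porin Vdac1 came nearest, at 0.36 ± 0.12 for potassium against control in 1 of its 2 probe sets (adjusted p = 0.096).

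Of 26 probe sets in a list of citric acid cycle and pyruvate genes, which includes kinases of pyruvate dehydrogenase, 2 rose with potassium and 0 fell. This is 7.69%, near the 5.39% of all tested probe sets. The median was 0.13, 5 (19.2%) were below 0 against 53.6% of all, and at an unadjusted p under 0.05 there were 8 higher and 0 lower (30.8% against 18.8%). Citrate synthase (Cs) read 1167, 1033 and 1027 in the control tubes, 1393, 1142 and 1255 with Ang II and 1417, 1363 and 1403 with potassium in the probe set that passed, a rise of 0.37 ± 0.087 (adjusted p = 0.021). All its potassium tubes were above all its control tubes, but the 3 other probe sets of the gene gave 0.084, 0.26 and -0.29 and did not pass. The other that passed was Pdk4, a kinase that acts on pyruvate dehydrogenase and is not itself an enzyme of the cycle or of pyruvate entry. Pdk4 read 505, 527 and 489.6 in the control tubes and 807, 712 and 649 with potassium, a rise of 0.49 ± 0.12 (adjusted p = 0.03). The mitochondrial pyruvate carrier subunit Mpc1 gave 0.29 ± 0.092 and did not pass (adjusted p = 0.091). With Ang II, 0 of the 26 passed and 1 (3.85%) was higher at an unadjusted p under 0.05, against 14.5% of all tested probe sets in either direction.

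Of 17 probe sets of regulators of mitochondrial genes, 1 fell with potassium (5.88%, near the 5.39% of all) and 0 passed in the other comparisons. There, 0 had an unadjusted p under 0.05 for Ang II against control and 1 between the stimuli, against 14.5% and 16.2% of all tested probe sets. The one that fell was Gabpb1, a subunit of GABP, at 1188, 1173 and 1369 in the control tubes and 844, 915 and 1074 with potassium, a difference of -0.39 ± 0.11 (adjusted p = 0.044). Its DNA-binding partner Gabpa gave 0.012 ± 0.14 and the brightest of 3 probe sets of Nrf1 gave 0.022 ± 0.17. Esrra, an orphan receptor that acts on respiratory genes, gave -0.39 ± 0.19 (adjusted p = 0.28), with signals of 146 to 309.

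Of 6 probe sets of steroid synthesis in mitochondria, 1 rose with Ang II and 2 with potassium, where 5 were above 0 and the median was 0.24. The calls make 16.7% and 33.3% of this short list, against 2.17% and 5.39% of all tested probe sets. These calls were all in the 2 probe sets of Star. The steroidogenic cholesterol carrier Star, as a check of the stimulus, read 20542, 16584 and 19492 in the control tubes, 23859, 22825 and 22441 with Ang II and 24650.0, 23429 and 23527 with potassium in its brighter probe set. It rose with Ang II (0.29 ± 0.063, adjusted p = 0.023) and with potassium (0.34 ± 0.063, adjusted p = 0.004). Both stimulated groups stood above the control group. The side-chain cleavage enzyme Cyp11a1 and its electron donor Fdx1 gave -0.057 and 0.012 with potassium and did not pass.

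Large complexes outside the mitochondrion were described beside the members, again under the main settings only. Cytosolic ribosomal proteins, with 48 tested probe sets, had medians of -0.011 with Ang II and -0.015 with potassium, and 1 (2.08%), Rpl3, rose with Ang II. Proteasome subunits, with 55, had medians of 0.0053 and -0.074, 1 rise with Ang II (Psmc6) and 1 fall with potassium (Psma6), and 46 of 55 (83.6%) were below 0 with potassium, against 53.6% of all tested probe sets. Each single call is 1.82% of the list, under the 2.17% and 5.39% of all tested probe sets. Between the stimuli 4 proteasome subunits were higher with Ang II (7.27% against 4.79%). The difference between the members and these lists was not tested.

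**Figure D5:**
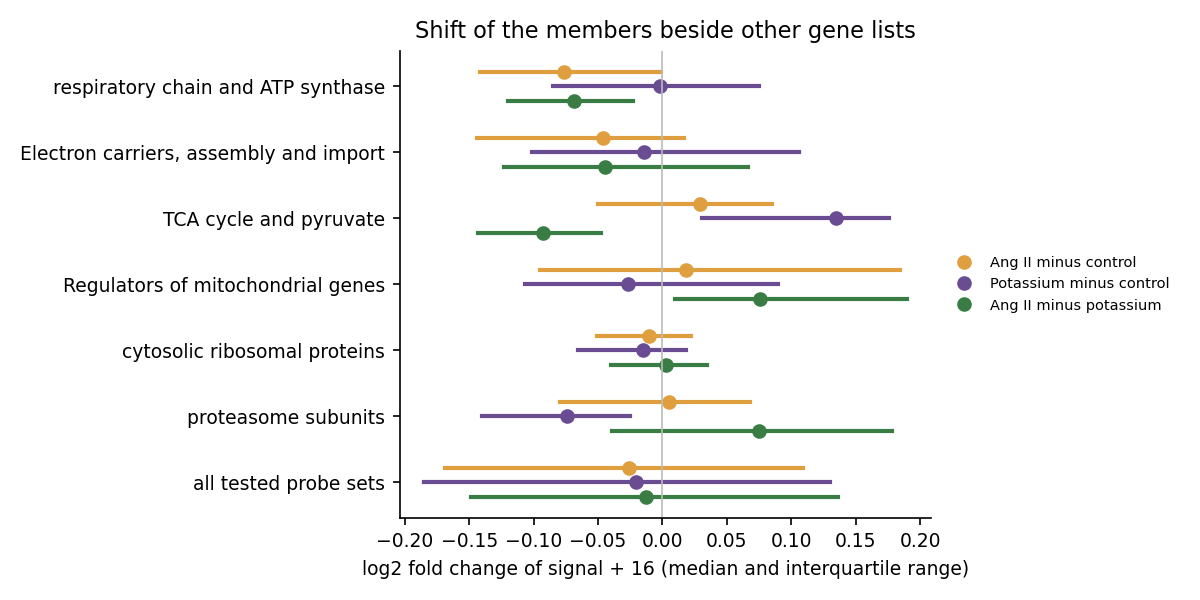
Median (point) and interquartile range (line) of the difference (log2 of signal plus 16) over the tested probe sets of each list, for the 3 comparisons in 3 colours. The members sit at -0.076 for Ang II minus control and near 0 for potassium minus control. When arrays are scaled to their median, these values move to 0.047 and 0.12. The citric acid cycle list sits at 0.13 for potassium minus control, and its dependence on the scaling was not tested.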

How the data were processed

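Gene expression was measured in 9 tubes of rat adrenal cells on 1-colour arrays. The deposited values are linear intensity signals of the authors' value table, 1 for each of 31099 probe sets, of which 57 are controls. Per the submitters' processing notes they come from GCOS, and each array has a trimmed mean of 500.2, while the background and summary method is not given in the sources used here. Symbols came from the platform annotation (20826 probe sets with 1 symbol, 436 with several, 9780 with none) and were set against RefSeq's gene table for GRCr8, which changed 0 of the 101 member symbols.

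Signals were taken as log2(signal + 16) and probe sets above the 40th percentile of mean signal were kept. Limma 3.58.1 in R 4.3.3 fitted treatment and preparation, with a variance trend, moderated tests over 4 residual degrees of freedom and Benjamini-Hochberg adjustment over 18625 probe sets. Preparations pair the tubes by the study's design. Over all tested probe sets, deviations of same-preparation tubes from their group means correlated at 0.11 to 0.27, others at -0.21 to 0.036. Over the members alone these ranges overlapped, at 0.096 to 0.57 and -0.47 to 0.35. Deviations from means of 3 tubes tie these ranges to each other. The script was tested on simulated data. Members and lists were chosen with earlier results of these data known. Named are members past the threshold, the 2 with the smallest p per complex and comparison, a fixed set of catalytic and isoform genes, and up to 3 genes per further list and comparison. Other alternatives changed the pseudocount (1 or 64), filter, pairing, trend, scaling, tubes and member choice.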

Additional observations from a re-analysis of the deposited data

Results flagged for a closer look

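A direct test found that the effects of the 2 stimuli differed for 3 members. Ang II minus potassium was -1.55 for Ndufa5 and -0.33 for Atp5f1d (log2), so that both read lower with Ang II, and 0.56 for Ndufaf4, which read higher with Ang II. Adjusted p-values in limma were 3.3e-05, 0.013 and 0.0014, and each difference had the same sign in 3 of 3 preparations.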

How the results depend on the processing

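The counts of members past the threshold were small and moved with the settings, while Ndufa5 was called for potassium against control and for Ang II against potassium under all 22 alternatives of the fit. For Ang II against control, 2 members were called. The count was 1 with no filter on signal, 1 with median centring over the tested probe sets, 1 with only the 2 groups compared, 1 with subunits only, 0 with no variance trend, 0 with scaling to each array's median and 6 with quantile normalization, and between 0 and 2 with a tube or a preparation left out. Over all tested probe sets, 404 calls became 325 with no filter, 430 with median centring and 358 with only the 2 groups. They became 32 with no variance trend, 455 with scaling to each array's median, 379 with quantile normalization and between 145 and 443 with a tube or preparation left out. For potassium against control, 4 members were called, and 1 with no variance trend, 2 with median centring, 2 with scaling to that median, 2 with only the 2 groups compared, and between 1 and 4 with a tube or preparation left out. Over all tested probe sets, 1004 calls became 256, 965, 911 and 763 in these settings, in that order, and between 446 and 972 with a tube or preparation left out. For Ang II against potassium, 3 were called, 1 with no variance trend, 4 with a mean signal above 200 and between 2 and 3 with a tube or preparation left out. Over all tested probe sets, 893 calls became 155 with no variance trend and 995 with a mean signal above 200. They lay between 270 and 1006 with a tube or preparation left out. Without pairing by preparation (no replicate block), the counts were 1, 1 and 2, and over all tested probe sets 193, 499 and 442. Preparation differences passed for 2 members, 0 with no variance trend, 4 with median centring, 18 with scaling to that median (where calls over all tested probe sets went from 639 to 1686) and between 0 and 4 with a tube or preparation left out. Over all tested probe sets these calls were 2 with no variance trend, 674 with median centring and between 16 and 753 with a tube or preparation left out. The cause of these changes was not tested, apart from the smaller number of tubes where some were left out.

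The member median kept its sign for Ang II against potassium under all alternatives. With scaling to each array's median it moved to 0.047 for Ang II against control and to 0.12 for potassium against control. The first ran from -0.12 to -0.0088 with a tube or preparation left out, the smallest size being without preparation 3, and the second from -0.037 to 0.042. The 6 called genes kept their direction throughout in the comparisons in which they were called. With 3 tubes a group the median SE of a difference was 0.075 (log2) over the members and 0.15 over all tested probe sets, which bounds what could be detected, and dim members had wider errors.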

Other observations

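Probe sets of the same member did not always read alike. For Uqcrc2 the brighter probe set gave -0.0016 and the dimmer 0.36 for potassium against control. The 2 probe sets of Ndufv3, an accessory subunit of complex I, gave 0.29 and -0.049, also for potassium against control. Those of Sdhd had the same sign, at -0.23 and -0.16 for Ang II against control. None of these passed the test, and which probe set of a gene reads its transcript better was not tested.

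Among the dim isoforms, Ndufa4l2, a relative of Ndufa4 known from cells short of oxygen, read 208, 375 and 208 in the control tubes, 324, 226 and 327 with Ang II and 254, 266 and 284 with potassium. The muscle isoform Cox7a1 read 204, 236 and 183 in the control tubes, 247, 164 and 178 with Ang II and 228, 213 and 171 with potassium. In both, the 3 groups overlapped. The common isoforms Cox6a1 and Cox8a gave 95% intervals of -0.066 to 0.21 and -0.087 to 0.16 for potassium against control, and Ndufa4 gave -0.10 to 0.16. The pseudogene Cox6c-ps1 read 99.4, 276 and 128 in the control tubes, 137, 231 and 126 with Ang II and 149, 158 and 149 with potassium, with groups that overlapped.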
